A study of Rattus norvegicus with 6 samples.

Results

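The tubule injury markers described here are 10 genes whose transcripts are used in kidney toxicology to follow damage to the renal tubule: Havcr1, Lcn2, Spp1, Clu, Vim, Cd44, Sox9, Vcam1, Anxa2 and Tff3. They were taken from a fixed list of symbols, and all their probes were found by matching each probe's RefSeq transcript to the rat gene symbol. Of the 10 genes, 9 had at least 1 probe, of 15281 named genes with a probe in all, and Sox9 had no matching probe and was not analysed here. The 9 genes had 17 probes in all, and 14 of these were tested because every array of the BBMP or of the control group, or of both, read them as well above background. Havcr1, Lcn2, Spp1, Vim and Vcam1 had 1 probe each, Clu, Anxa2 and Tff3 had 2 each, and Cd44 had 6, of which 3 were tested.

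RNA of the renal cortex was measured on 6 one-colour Agilent arrays, 1 per animal, in male Sprague-Dawley rats of the Crl:CD(SD) stock bought at 5 weeks of age. The BBMP group was 3 rats dosed for 4 weeks with 1000 mg/kg/day of BBMP, or 2,2-bis(bromomethyl)-1,3-propanediol, which carries a pair of bromomethyl groups. The control group was 3 rats dosed with corn oil over the same 4 weeks. Samples within a group are biological replicates by the design text.

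When a tubule cell is damaged, it loses its transport functions, takes on a flatter, more mobile form and places new proteins on its surface or sheds them into the urine. Havcr1 encodes KIM-1, a membrane receptor of injured proximal tubule cells that binds dying neighbours, and Lcn2 encodes NGAL, an iron-carrier binding protein released by injured tubules. Spp1 encodes osteopontin, a secreted ligand of integrins and CD44, and Clu encodes clusterin, a secreted chaperone. Vim encodes vimentin, an intermediate filament of mesenchymal and dedifferentiated cells, and Cd44 encodes a receptor for hyaluronan. Vcam1 is an adhesion molecule that binds leukocytes, Anxa2 is a calcium-dependent membrane binding protein, and Tff3 encodes trefoil factor 3, a small peptide secreted by epithelia and measured in urine as a kidney marker. Sox9 encodes a transcription factor of regenerating tubule cells.

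The promoters of the 3 genes with a probe that was higher in the BBMP group are shown, to set the sequence before each start beside the change. They are the 250 bases before the transcription start in RefSeq's GRCr8 assembly, all on the plus strand, and 8 of the 10 genes matched an entry of that table. Capitals mark matches to the motifs named after them.
Havcr1, chr10:31629528-31629777: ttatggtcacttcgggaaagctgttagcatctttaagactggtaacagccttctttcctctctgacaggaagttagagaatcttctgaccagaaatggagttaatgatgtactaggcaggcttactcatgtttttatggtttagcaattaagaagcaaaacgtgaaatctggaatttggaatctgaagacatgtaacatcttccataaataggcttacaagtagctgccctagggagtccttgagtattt
Vim, chr17:81577011-81577260: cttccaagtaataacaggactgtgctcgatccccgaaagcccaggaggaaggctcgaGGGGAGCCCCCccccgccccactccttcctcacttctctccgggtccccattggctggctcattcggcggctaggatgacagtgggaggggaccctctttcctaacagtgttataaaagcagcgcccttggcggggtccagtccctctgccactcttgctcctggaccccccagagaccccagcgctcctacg
Anxa2, chr8:78986002-78986251: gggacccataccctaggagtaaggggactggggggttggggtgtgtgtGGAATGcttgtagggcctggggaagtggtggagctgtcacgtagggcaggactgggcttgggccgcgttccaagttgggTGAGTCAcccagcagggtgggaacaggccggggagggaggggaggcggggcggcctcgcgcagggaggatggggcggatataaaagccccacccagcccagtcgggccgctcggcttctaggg
The Havcr1 window was 39.2% G and C with 2 CpG dinucleotides, and its start site lay 9864 bases inside the annotated gene. The Vim window was 62.4% G and C with 11 CpG dinucleotides. The Anxa2 window was 67.2% G and C with 12 CpG dinucleotides, against medians of 51.2% and 5 over all 33469 promoters of the same length.

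Searched on both strands, the AP-1 motif TGANTCA was found in 1 of the 8 member windows, as TGAGTCA in Anxa2 from 123 to 117 bases before the start, and in 6.34% of all promoters. The TEAD motif GGAATG was found in 2 of 8, in Anxa2 from 202 to 197 and in Lcn2 from 242 to 237 bases before the start, and in 12.1% of all promoters. The STAT motif TTCNNNGAA was found in 1 of 8, as TTCAGAGAA in Tff3 from 70 to 62 bases before the start, and in 7.67% of all promoters. A strict form of the NF-kB motif was in 0 of 8 windows and in 1.30% of all promoters. The kappaB consensus, a looser form of it that was added after the sequences had been read, was in 2 of 8 and in 4.24% of all promoters. It matched GGGATTTCCC in Vcam1 from 93 to 84 bases before the start, and 2 overlapping runs in Vim from 193 to 183 bases before the start. A match is a description of letters, and binding was not measured. The Havcr1 window held no match to any of these motifs.

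Values are given as relative signal, the processed signal of a probe divided by the array's 75th percentile, so that the percentile equals 1. A probe or gene is called higher or lower where limma's p-value, adjusted by the Benjamini-Hochberg method over all 42657 tested probes, was under 0.05. BBMP arrays shared slide 2 and scan 2, and control arrays shared slide 1 and scan 1, which means that an effect of the slide or the scan cannot be told apart from one of BBMP. The 75th percentile was a processed signal of 1244 to 1259 on BBMP arrays and of 943 to 950 on control arrays, and between 70.5% and 72.7% of probes on BBMP arrays and between 67.2% and 68.6% on control arrays were well above background. Of all tested probes, 17.8% were called, and of 31582 genes or sequences, each counted by its brightest probe, 10.2% were called higher and 7.67% lower.

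Of the 9 measured injury markers, counted by their brightest probe, 2 were higher in the BBMP cortex, Havcr1 and Vim, and 0 were lower. Havcr1 was tested through its BBMP arrays alone. At an unadjusted p under 0.05, limma found 2 higher and 1 lower, Cd44. Over all tested probes, 15584 of 42657 had an unadjusted p under 0.05 in either direction. With 1 probe per gene it was 11564 of 31582, the share to set beside every unadjusted count of genes given here. Of the 14 tested probes, 3 were called higher and 1 lower, the lower one being a second probe of Cd44. The 2 of 9 called higher stand beside the 10.2% of all genes. The median log2 difference of the 9 genes was 0.13, in a range from -0.32 in Cd44 to 0.97 in Clu, and the median of all genes was 0.05. Clu, with the largest difference of the 9, did not pass the test.

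**Figure D1:**
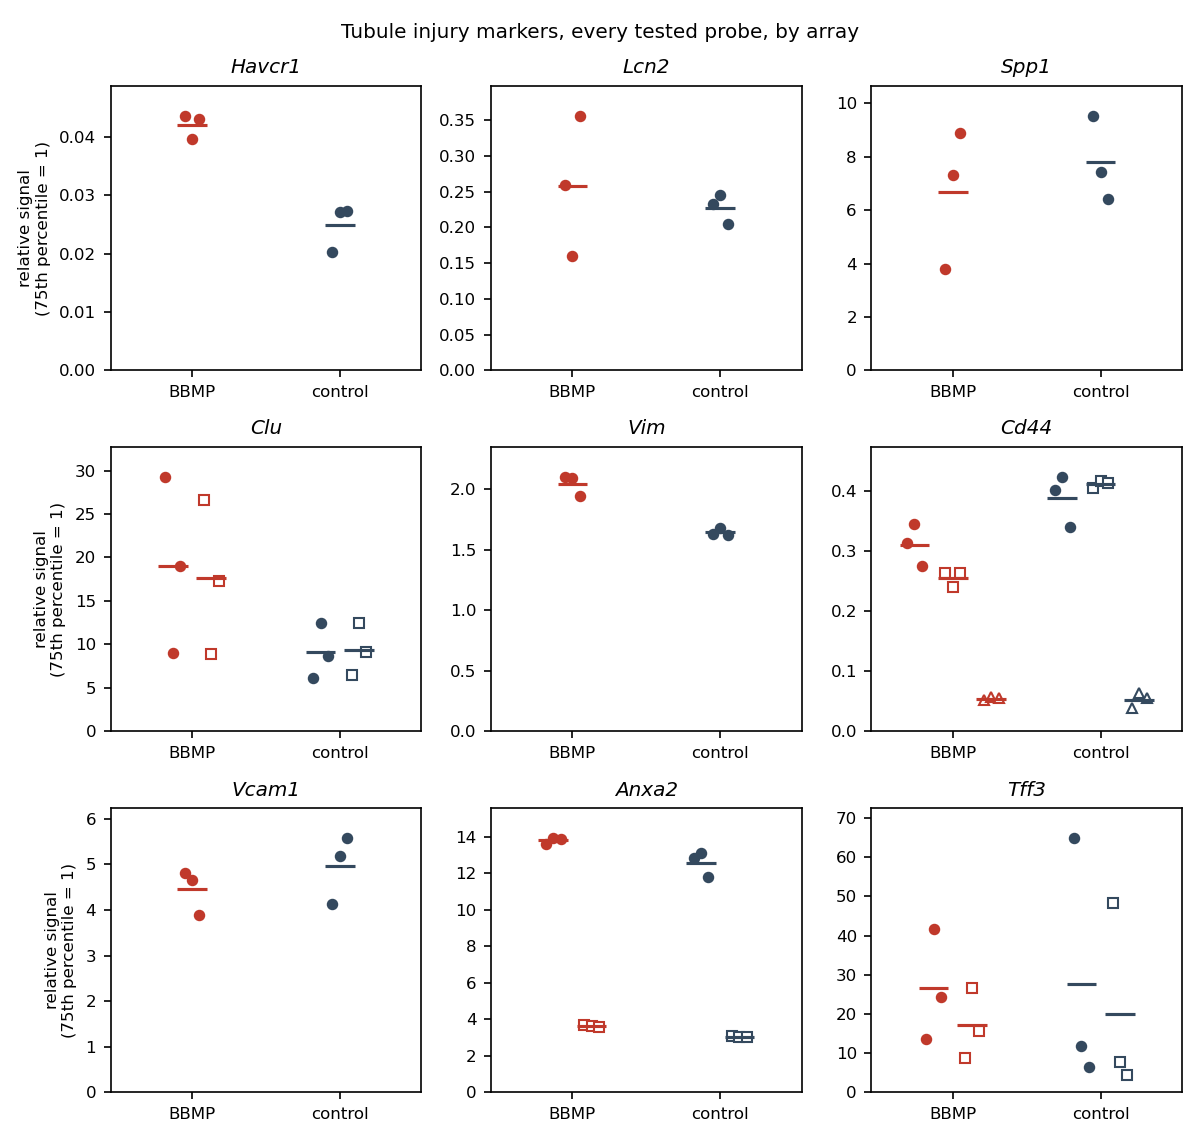
Relative signal (y axis, the array's 75th percentile equals 1, each panel with its own linear scale from 0) of every tested probe of 9 injury markers in BBMP (left of each panel) and control (right) arrays. Points are single arrays, shapes are different probes of a gene and bars are means; Havcr1, Vim and both probes of Anxa2 lie higher in BBMP without overlap, and the second probe of Cd44 lies lower.

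Havcr1, the transcript of KIM-1, had a relative signal of 0.0435, 0.0397 and 0.0431 in BBMP rats 1, 2 and 3, against 0.0202, 0.0272 and 0.0272 in control rats 1, 2 and 3. Every BBMP array was above every control array. The means were 0.0421 ± 0.0021 in BBMP and 0.0249 ± 0.0040 in control cortex (SD, n = 3 each), a log2 difference of 0.77 ± 0.13 (SE, 95% confidence interval 0.44 to 1.10), or 1.71-fold (limma adjusted p = 0.0204). The probe was dim: it was well above background on 3 BBMP arrays and on 2 of 3 control arrays. It therefore entered the test through the BBMP group alone, the group where it was higher. The raw median spot signal was 85, 79 and 82 over a local background of 50, 52 and 53 on the BBMP arrays. On the control arrays it was 55.5, 59.5 and 58.5, below the local background of 58, 63 and 73 around the same spots. The raw signal of this spot exceeded its surroundings in the BBMP group alone.

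The 1678 genes within 0.25 of Havcr1's mean log2 signal had a median log2 difference of 0.18, and Havcr1 exceeded that median by 0.59. Those genes had passed the same filter, so the excess is a description and adds no support to the call. With normexp, a background correction that starts from the raw spot signal and adds an offset of 50 to each value, the log2 difference of Havcr1 was -0.0047 (limma adjusted p = 0.958). Where a probe had to be well above background on all 6 arrays, Havcr1 was not tested. With 1 array left out, its log2 difference stayed between 0.63 and 0.84, and limma's adjusted p was 0.0504 without control 2, 0.0693 without BBMP 1, 0.0618 without BBMP 2 and 0.0644 without BBMP 3, while the call held without control 1 or control 3. Limma's adjusted p was 0.0782 with replicate number as a block in the fit. With slide row as a block, the log2 difference was 0.63. That fit sets the BBMP arrays against control 3 alone, the only control array in their slide row.

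Lcn2, the transcript of NGAL, had a relative signal of 0.259, 0.161 and 0.355 in BBMP rats, against 0.234, 0.245 and 0.204 in control rats. The BBMP values lay on either side of the control values, with BBMP 3 the highest and BBMP 2 the lowest of all 6. The means were 0.258 ± 0.097 in BBMP and 0.228 ± 0.021 in control cortex (SD, n = 3 each), 1.08-fold with a 95% confidence interval from 0.664 to 1.76 (limma adjusted p = 0.805). Without BBMP 3 the log2 difference was -0.15. A change of Lcn2 was not detectable with 3 arrays per group.

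The secreted proteins Spp1 and Clu were well above background on all 6 arrays, and neither passed the test. Spp1, osteopontin, had a relative signal of 3.81, 7.33 and 8.91 in BBMP rats, against 9.51, 7.45 and 6.41 in control rats. The groups overlapped, and BBMP 1 was the lowest of the 6 arrays. The means were 6.68 ± 2.61 in BBMP and 7.79 ± 1.58 in control cortex (SD, n = 3 each), a log2 difference of -0.29 ± 0.34 (SE, 95% confidence interval -1.12 to 0.54, limma adjusted p = 0.576). Without BBMP 1 the log2 difference was 0.07.

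Clu, clusterin, gave 29.2, 8.97 and 19.0 in BBMP rats with its first probe, against 6.19, 12.5 and 8.64 in control rats. Its second probe gave 26.6, 8.88 and 17.3 in BBMP rats, against 6.52, 12.4 and 9.18 in control rats. With either probe BBMP 1 and BBMP 3 lay above all controls and BBMP 2 lay among them. The ratio of the first probe to the second stayed between 0.942 and 1.10 over the 6 arrays, and the order of animals differed between the probes only in BBMP 2 and control 3, which lay close together. The first probe averaged 19.1 ± 10.1 in BBMP and 9.10 ± 3.18 in control cortex (SD, n = 3 each), 1.95-fold with a 95% confidence interval from 0.863 to 4.43 (limma adjusted p = 0.202). The second was 1.77-fold higher on average (limma adjusted p = 0.235). Without BBMP 1 the log2 difference of the first probe was 0.58, and without BBMP 2 it was 1.43, with limma adjusted p-values of 0.421 and 0.0813.

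Vim, vimentin, had a relative signal of 2.10, 2.10 and 1.94 in BBMP rats, against 1.63, 1.68 and 1.63 in control rats. Every BBMP array was above every control array, and arrays of 1 group lay close together. The means were 2.05 ± 0.089 in BBMP and 1.65 ± 0.030 in control cortex (SD, n = 3 each), a log2 difference of 0.31 ± 0.06 (SE, 95% confidence interval 0.16 to 0.46), or 1.24-fold (limma adjusted p = 0.0258). Genes of like brightness had a median log2 difference of -0.0072. The direction held in every setting tried. The call did not: with any 1 of the 6 arrays left out, limma's adjusted p lay between 0.0522 and 0.0828, with normexp it was 0.0541 and with median scaling 0.0518. It was 0.0907 with replicate number as a block in the fit. With slide row as a block, which compares with control 3 alone, the log2 difference was 0.33.

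In bulk cortex, a change in the amount of vimentin RNA per cell and a change in the share of cells that contain it cannot be told apart. Mesangial, smooth muscle and endothelial cells and fibroblasts carry vimentin too. Of 10 listed markers of mesangium, smooth muscle and fibroblasts, 1 was called higher, Des, the muscle intermediate filament desmin, at 0.466 ± 0.0089 in BBMP and 0.345 ± 0.029 in control cortex (SD, n = 3 each; 1.35-fold, limma adjusted p = 0.0214). The summed relative signal of that list lay between 29.0 and 36.4 in BBMP and between 27.3 and 30.6 in control cortex. Of 7 endothelial markers, 1 was called higher, Cdh5, the endothelial cadherin (1.42-fold, limma adjusted p = 0.0160), and the summed signal lay between 30.8 and 32.2 in BBMP and between 31.0 and 39.1 in control cortex. Most of the endothelial sum was Kdr, at 23.3 ± 0.48 in BBMP and 26.8 ± 3.8 in control cortex (SD, n = 3 each). The median log2 difference was 0.059 over the mesangium, smooth muscle and fibroblast list and 0.21 over the endothelial list. Pdgfrb, a pericyte and mesangial receptor, and Pecam1, an endothelial adhesion molecule, went the other way. Pdgfrb averaged 1.13 ± 0.083 in BBMP and 1.34 ± 0.19 in control cortex (SD, n = 3 each; limma adjusted p = 0.192), with overlap. Pecam1 averaged 4.29 ± 0.82 in BBMP and 5.35 ± 0.33 in control cortex (SD, n = 3 each; log2 difference -0.34, limma adjusted p = 0.175), lower in every BBMP array, with another of its probes of opposite sign. The part of these cells in the Vim difference was not tested.

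Anxa2 had 2 probes, and both were higher in every BBMP array than in any control array. The first gave 13.6, 13.9 and 13.9 in BBMP rats, against 12.8, 13.1 and 11.8 in control rats, a log2 difference of 0.13 ± 0.06 (SE, 95% confidence interval -0.03 to 0.29), or 1.10-fold (limma adjusted p = 0.192). The second gave 3.68, 3.64 and 3.59 in BBMP rats, against 3.08, 3.05 and 3.04 in control rats. That probe averaged 3.64 ± 0.047 in BBMP and 3.05 ± 0.022 in control cortex (SD, n = 3 each), a log2 difference of 0.25 ± 0.05 (SE), or 1.19-fold (limma adjusted p = 0.0301). Of the 2 probes, the second alone was called. Leaving out any 1 array took its adjusted p to between 0.0631 and 0.0920, median scaling gave 0.0732 and no filter on dim probes 0.0519. Replicate number as a block in the fit gave 0.108. With slide row as a block, which compares with control 3 alone, the log2 difference of the second probe was 0.26.

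Counted by the brightest probe, 3 of the 9 genes, Havcr1, Vim and Anxa2, did not overlap between the groups and were higher in BBMP, where 25.0% of all genes did the same. Among the 3, Havcr1 passed the filter through the BBMP group alone.

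**Figure D2:**
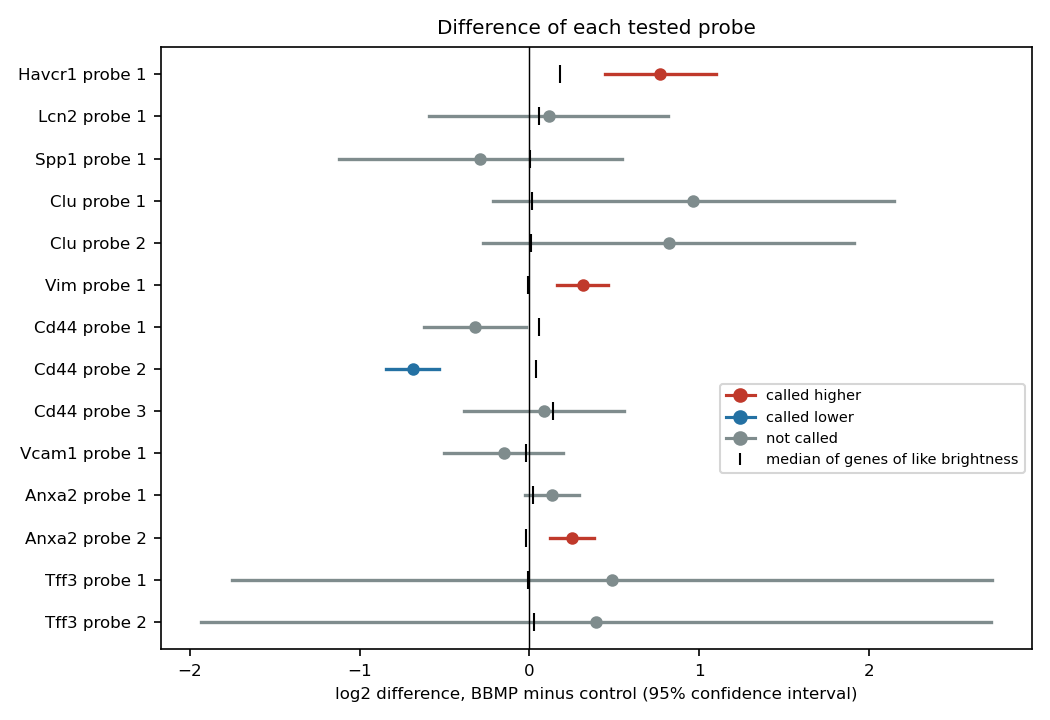
Log2 difference, BBMP minus control (x axis), of the 14 tested probes (y axis), as a point with its 95% confidence interval; black ticks mark the median of genes of like brightness. Intervals of Tff3, Clu, Spp1 and Lcn2 are wide and cross 0, while those of Vim, Havcr1 and the second probe of Anxa2 lie above 0 and those of the first and second probes of Cd44 lie below it.

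The receptor gene Cd44 had 3 tested probes, and they did not move alike. The first gave 0.312, 0.345 and 0.274 in BBMP rats, against 0.402, 0.422 and 0.340 in control rats, with 1 BBMP array above the lowest control. Its log2 difference was -0.32 ± 0.12 (SE, 95% confidence interval -0.62 to -0.02, limma adjusted p = 0.118). The second gave 0.264, 0.240 and 0.262 in BBMP rats, against 0.405, 0.415 and 0.413 in control rats, and every BBMP array was below every control array. It averaged 0.256 ± 0.013 in BBMP and 0.411 ± 0.0053 in control cortex (SD, n = 3 each), a log2 difference of -0.69 ± 0.06 (SE, 95% confidence interval -0.84 to -0.53), or 1.61-fold lower (limma adjusted p = 0.0113). The third gave 0.0520, 0.0564 and 0.0556 in BBMP rats, against 0.0384, 0.0643 and 0.0554 in control rats, and the groups overlapped (log2 difference 0.09 ± 0.19 SE, limma adjusted p = 0.779).

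The decrease at the second Cd44 probe kept its sign in all 17 alternatives that gave a value for it, with log2 differences between -0.76 and -0.64. Its call was lost without BBMP 1 (limma adjusted p = 0.0502) and without BBMP 2 (0.0537). The call was also lost with replicate number as a block in the fit (0.0755). With slide row as a block, which compares with control 3 alone, the log2 difference was -0.69. The ratio of the first probe to the second lay between 0.825 and 1.43 over the 6 arrays, against 0.942 to 1.10 for the probes of Clu. All 6 probes were matched to 1 Cd44 transcript record, and which part of the transcript each reads was not analysed here. On no array did the 3 other Cd44 probes read well above background.

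Vcam1, the leukocyte adhesion molecule, had a relative signal of 4.81, 4.65 and 3.89 in BBMP rats, against 4.14, 5.19 and 5.57 in control rats. The groups overlapped, with BBMP 3 the lowest of the 6. The means were 4.45 ± 0.49 in BBMP and 4.96 ± 0.74 in control cortex (SD, n = 3 each), a log2 difference of -0.15 ± 0.14 (SE, 95% confidence interval -0.50 to 0.20, limma adjusted p = 0.481). The summed signal of 15 leukocyte markers with a probe lay between 65.3 and 100.8 in BBMP and between 89.1 and 100.8 in control cortex. Most of that sum was Lyz2, at 80.6 ± 18.8 in BBMP and 87.3 ± 6.2 in control cortex (SD, n = 3 each). Of the 13 leukocyte markers tested, 1 was called higher, Csf1r, the macrophage growth factor receptor (1.34-fold, limma adjusted p = 0.0276), and 0 lower. At an unadjusted p under 0.05, limma found 3 higher and 1 lower, and their list had a median log2 difference of -0.014. Ptprc averaged 0.919 ± 0.096 in BBMP and 1.01 ± 0.016 in control cortex (SD, n = 3 each; limma adjusted p = 0.291), with overlap. Cd163 was not well above background on any array.

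Tff3, trefoil factor 3, had the largest pooled within-group SD of the 9 injury markers, although within the BBMP group alone Clu varied more. Its first probe gave 13.5, 41.8 and 24.2 in BBMP rats, against 64.7, 11.8 and 6.46 in control rats. Its second probe gave 8.77, 26.7 and 15.7 in BBMP rats, against 48.2, 7.83 and 4.32 in control rats. With both probes control 1 was the highest and control 3 the lowest of the 6 arrays, and the BBMP values lay between them. The highest control was 10.02 times the lowest with the first probe, and the highest BBMP array was 3.09 times the lowest, against 3.26 times for the first probe of Clu in BBMP rats. The ratio of the probes stayed between 1.34 and 1.56, and both probes gave the same order of animals.

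The means of the first probe were 26.5 ± 14.3 in BBMP and 27.7 ± 32.2 in control cortex (SD, n = 3 each), while the log2 difference was 0.49 ± 0.91 (SE, 95% confidence interval -1.75 to 2.73, limma adjusted p = 0.732), so the linear and log2 means differ in sign. Without control 3 the log2 difference was -0.21, and without control 1 it was 1.45. Umod, uromodulin of the thick ascending limb, gave 285, 409 and 382 in BBMP rats, against 450, 348 and 231 in control rats, again with control 1 the highest and control 3 the lowest. Slc12a3, the sodium chloride cotransporter of the distal convoluted tubule, gave 27.2, 24.4 and 23.8 in BBMP rats, against 20.6, 28.0 and 22.4 in control rats, with control 1 the lowest of the 6. Of the 3 tested thick limb and distal tubule markers, limma called 0, with 1 at an unadjusted p under 0.05, and Pvalb was not well above background on any array. The part of these segments in the spread of Tff3 was not tested.

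**Figure D3:**
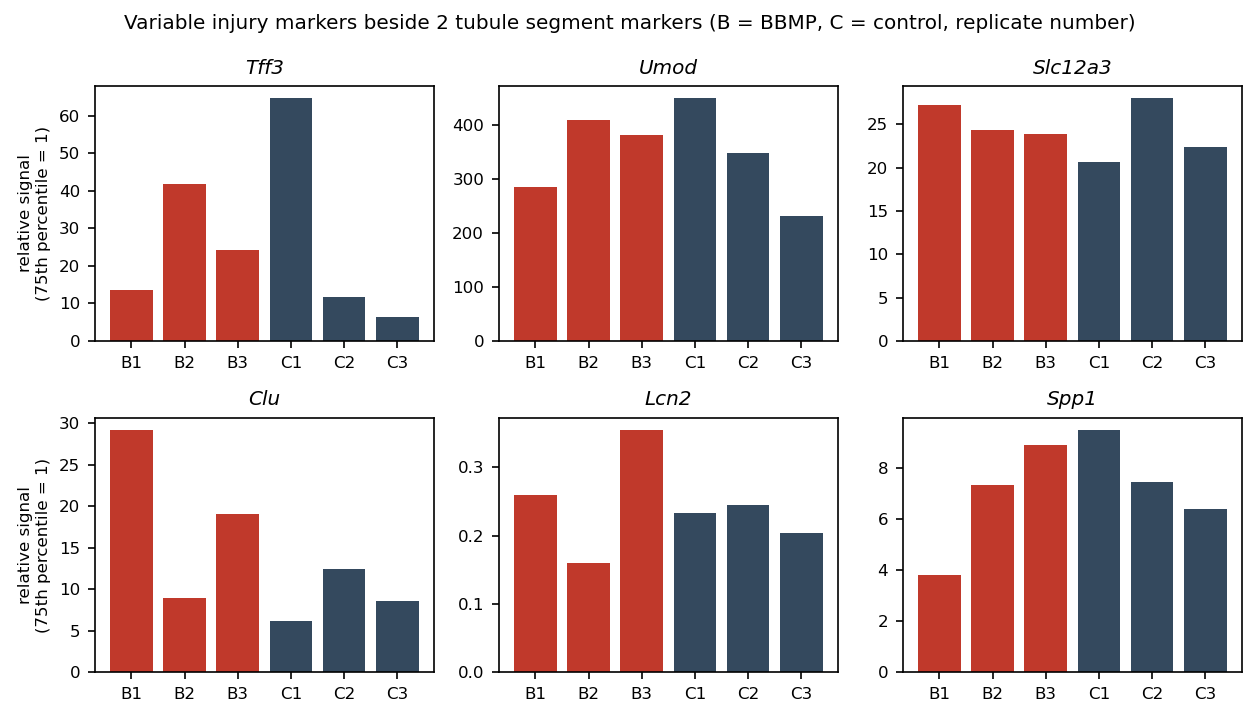
Relative signal (y axes, linear from 0, the array's 75th percentile equals 1) of Tff3, Clu, Lcn2 and Spp1 beside the segment markers Umod and Slc12a3, 1 bar per array with BBMP animals (B1 to B3) left of control animals (C1 to C3). Tff3 and Umod are highest in control 1 and lowest in control 3, while Clu is highest in BBMP 1 and BBMP 3.

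The injury markers differed widely in their spread between animals of 1 group. The within-group SD of log2 signal was 0.049 for Vim, smaller than in all but 9.38% of genes, and 0.015 for the second probe of Anxa2, smaller than in all but 0.187%. It was 0.42 for Lcn2, 0.50 for Spp1, 0.71 for Clu and 1.35 for Tff3, larger than in 91.9%, 94.5%, 97.6% and 99.6% of genes. The median was 0.20 over the 9 injury markers and 0.13 over all genes. The 4 variable markers did not share an order of animals: among BBMP rats, BBMP 1 was the highest for Clu and the lowest for Spp1 and Tff3, and BBMP 3 was the highest for Lcn2 and Spp1.

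**Figure D4:**
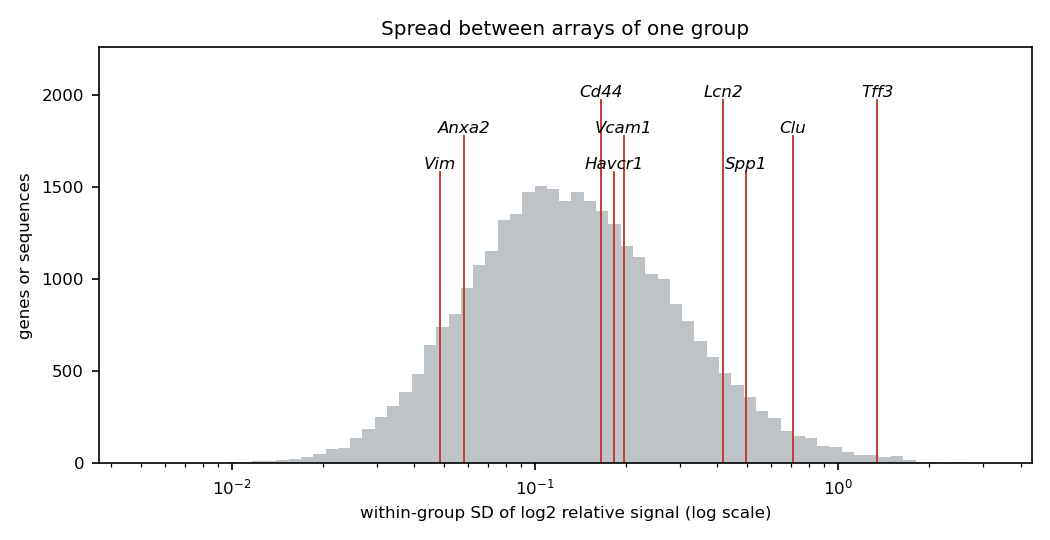
Within-group SD of log2 relative signal (x axis, log scale) over all tested genes or sequences (grey histogram, y axis is their number), with red lines at the brightest probe of each injury marker. Vim and Anxa2 lie at the low end, and Lcn2, Spp1, Clu and Tff3 at the high end, up to an SD of 1.35.

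Other genes of the same biology were counted by their brightest probe. Of 15 further urinary and blood markers of kidney injury, limma called 0, with 1 higher and 2 lower at an unadjusted p under 0.05, and their median log2 difference was -0.016. B2m, beta-2 microglobulin, a filtered protein that proximal tubules take up again, averaged 178 ± 5.9 in BBMP and 203 ± 12.3 in control cortex (SD, n = 3 each), lower in every BBMP array (log2 difference -0.19 ± 0.07 SE, limma adjusted p = 0.116). Cst3, cystatin C, averaged 70.2 ± 7.0 in BBMP and 70.8 ± 2.4 in control cortex (SD, n = 3 each; limma adjusted p = 0.917).

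Of 40 tested genes of injured and dedifferentiated tubules, 1 was higher and 3 were lower, with a median log2 difference of 0.04. Those counts depended on the processing: normexp gave 4 higher and 4 lower, eBayes with trend and robust 4 higher and 3 lower, median scaling 0 higher and 3 lower, and no filter on dim probes 0 of either, with 7 at an unadjusted p under 0.05. Anxa5, a relative of Anxa2 that binds exposed phosphatidylserine, rose to 3.57 ± 0.21 in BBMP, against 2.88 ± 0.10 in control cortex (SD, n = 3 each; 1.24-fold, limma adjusted p = 0.0362). S100a10, whose protein forms a complex with annexin A2, fell to 5.40 ± 0.22 in BBMP, against 7.05 ± 0.71 in control cortex (SD, n = 3 each; 1.30-fold lower, limma adjusted p = 0.0422). Anxa2 and S100a10 had differences of opposite sign. S100a11, another calcium-binding S100 protein, fell to 2.26 ± 0.10 in BBMP, against 2.81 ± 0.185 in control cortex (SD, n = 3 each; limma adjusted p = 0.0420). Cldn1, a tight junction claudin that parietal epithelium also carries, was 1.41-fold lower (limma adjusted p = 0.0447), with another of its 3 probes of opposite sign.

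Of 22 tested receptors, ligands and partners of the injury markers, 2 were higher and 2 lower, with a median log2 difference of 0.03. Plg, plasminogen, which annexin A2 with S100A10 binds on cell surfaces, rose to 2.01 ± 0.14 in BBMP, against 1.36 ± 0.05 in control cortex (SD, n = 3 each; 1.48-fold, limma adjusted p = 0.0135). Havcr2, a relative of Havcr1 that encodes TIM-3, was 1.48-fold higher (limma adjusted p = 0.0339) at 0.0334 in BBMP and 0.0226 in control cortex. It was dim, well above background on 4 of 6 arrays, so it entered the test through a single group, and its call adds no support. Every BBMP array was above every control array. With normexp its log2 difference was -0.14. Rdx, radixin, which links CD44 to actin, fell to 9.65 ± 0.42 in BBMP, against 11.6 ± 0.39 in control cortex (SD, n = 3 each; limma adjusted p = 0.0411), with another of its 3 probes of opposite sign. S100a10, also in this list, was the other lower gene.

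Of 14 tested NF-kB and acute phase targets, 1 was higher and 0 lower, with 3 higher and 1 lower at an unadjusted p under 0.05, and the median log2 difference was -0.037. Nfkb2, a subunit of NF-kB, averaged 1.19 ± 0.032 in BBMP and 0.981 ± 0.022 in control cortex (SD, n = 3 each; 1.21-fold, limma adjusted p = 0.0300). Icam1, an adhesion molecule that leukocytes bind as they do Vcam1, averaged 3.51 ± 0.18 in BBMP and 3.00 ± 0.14 in control cortex (SD, n = 3 each; limma adjusted p = 0.0769), without overlap. With any 1 array left out, limma's adjusted p lay between 0.0589 and 0.104 for Anxa5, between 0.0599 and 0.114 for Rdx and between 0.0614 and 0.0911 for Nfkb2. It lay between 0.0326 and 0.117 for S100a10, between 0.0428 and 0.119 for S100a11, between 0.0342 and 0.0537 for Plg, between 0.0466 and 0.122 for Cldn1 and between 0.0378 and 0.0997 for Havcr2.

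The cortex label was checked against segment markers. Slc34a1, the phosphate cotransporter of the proximal tubule, averaged 350 ± 12.0 in BBMP and 354 ± 6.5 in control cortex (SD, n = 3 each), and the sum of 17 proximal tubule markers lay between 2848 and 2963 in BBMP and between 2857 and 3071 in control cortex. Of those 17, 1 was called higher, the transcription factor Hnf4a (1.39-fold, limma adjusted p = 0.0218), and 0 lower, with 3 higher and 2 lower at an unadjusted p under 0.05. The sum of 9 medulla, papilla and urothelium markers with a probe lay between 9.44 and 9.64 in BBMP and between 8.60 and 9.30 in control cortex, and Upk2 was not well above background on any array. Most of that sum was Tp63, at 7.59 ± 0.15 in BBMP and 6.97 ± 0.44 in control cortex (SD, n = 3 each), so it is a weak check for medulla. In that list Upk1b was called higher (1.62-fold, limma adjusted p = 0.0376) and Aqp4 lower (1.53-fold, limma adjusted p = 0.0198). Of the 2 tested probes of Upk1b 1 was called, and Aqp4 had another of its 3 probes of opposite sign. The sum of 8 proliferation genes lay between 13.4 and 14.0 in BBMP and between 12.0 and 15.1 in control cortex, and of the 7 tested limma called 0, with 1 at an unadjusted p under 0.05.

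The remaining cell type lists were those of podocytes, parietal epithelium and collecting duct. Synpo, an actin-binding protein of podocytes, was called higher (1.32-fold, limma adjusted p = 0.0193). The 6 podocyte markers had a median log2 difference of 0.036. Their summed signal lay between 30.4 and 35.2 in BBMP and between 31.9 and 37.6 in control cortex, with overlap. Of 4 parietal epithelium markers 2 were called lower, Cldn1 and Cdh2, beside 7.67% of all genes. The call was lost for Cdh2 with any 1 array left out (limma adjusted p 0.0529 to 0.117). For Cldn1 it was lost in all but 1 of 6 such fits. The summed signal of the 4 lay between 2.25 and 2.36 in BBMP and between 2.75 and 2.93 in control cortex. That sum mostly repeats Cldn1 and Cdh2, while Ncam1 (log2 difference 0.055) and Pax2 (-0.066) were not called. Of 6 collecting duct markers limma called 0, also at an unadjusted p under 0.05. With 1 array left out, Upk1b was called in 0 of 6 fits (limma adjusted p 0.0573 to 0.0979), Csf1r and Synpo in 1 each, Aqp4, Hnf4a and Des in 2 each and Cdh5 in 4. What these cell types add to the injury marker values was not tested.

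**Figure D5:**
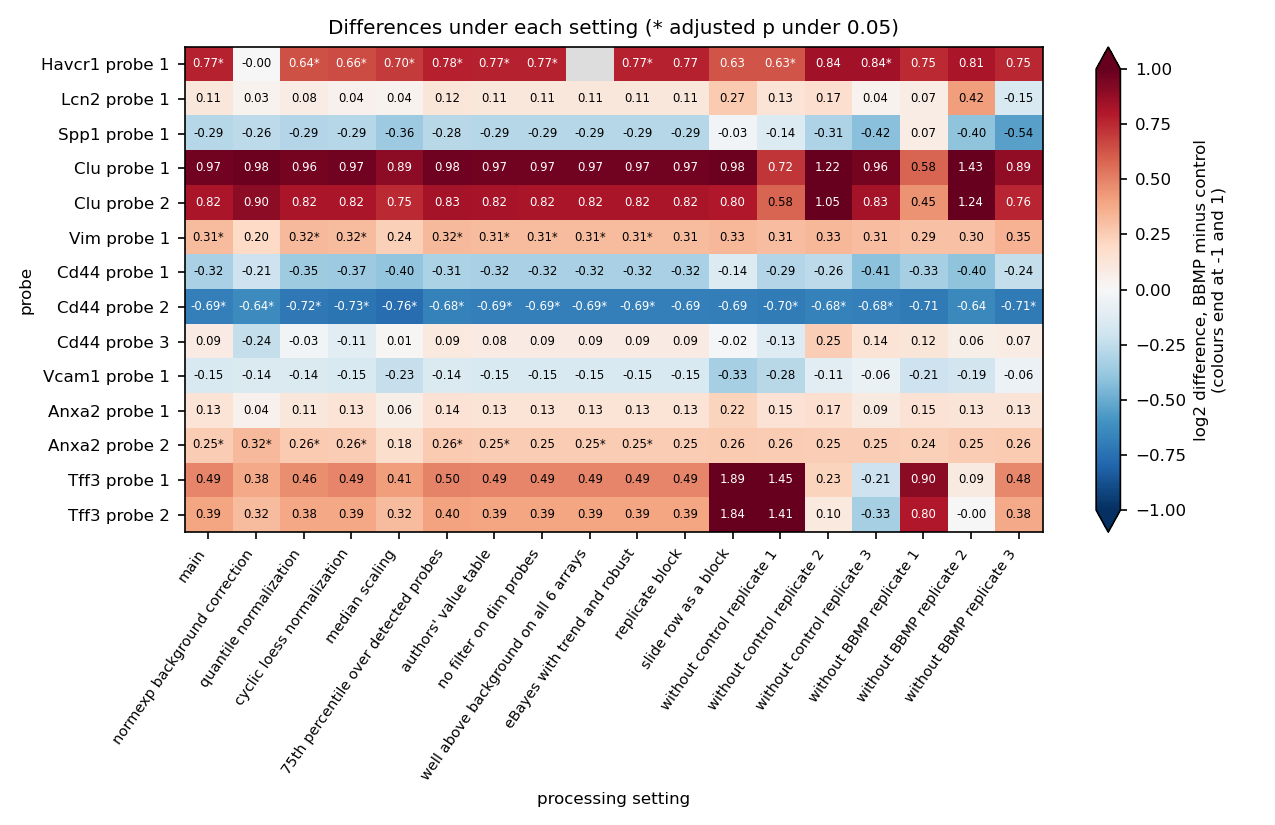
Log2 difference, BBMP minus control, of each tested probe (rows) under each processing setting (columns), as colour and number; an asterisk marks an adjusted p under 0.05 and grey a probe that was not tested. The second Cd44 probe is negative and Vim and both Clu probes are positive in every column, while Tff3, Lcn2 and Spp1 change sign when 1 array is left out and Havcr1 falls to -0.0047 with normexp.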

How the data were processed

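Total RNA of the renal cortex was measured on 6 arrays, 3 from BBMP and 3 from control rats, labelled with Cy3 per the labels' protocols. Per the file headers, Agilent Feature Extraction 10.7.1.1 read each array, and the submitters' processing notes name version 10.7. Intensity is linear in the deposited scanner files, which give a background-corrected processed signal, the raw median signal and its local background. Their deposited flags are a score of 0 or 1 per spot for signal well above background, saturation and outliers. The authors' deposited table gives 1 ratio per probe and array. Its columns equal the processed signal of a scanner file of the same group over that array's 75th percentile, but of another replicate number, so replicate numbers are uncertain and groups are not.

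Of 61657 probes not marked as controls, 84 ERCC spike-in probes and 10 with outlier flags were left out, leaving 61563, of which 27452 were named by RefSeq accession. Processed signals were divided by their array's 75th percentile, and the log2 of the quotient was fitted per probe with limma 3.58.1 under R 4.3.3, using lmFit and eBayes with the group as the only term and two-sided p-values. Probes entered the test when well above background on each array of the BBMP group or each array of the control group. The fit was tested on simulated data. Promoters came from RefSeq's GRCr8 table. Python 3.11.15 and matplotlib 3.10.9 drew the figures. The planned normexp correction used the median signal with an offset of 50. The members and lists were chosen with earlier results of these data known. From each other list, up to 4 called genes with the largest difference were named, and where fewer than 2 were called, the first listed genes well above background on all 6 arrays. Umod and Slc12a3, beside Tff3, come from that rule, and Cd163, Upk2 and Pvalb were named after their values were seen. A gene that this rule chose is not reported here. Precision is limited by there being 3 arrays per group.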

Additional observations from a re-analysis of the deposited data

How the results depend on the processing

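Over all probes, 7594 were called, 58.1% of them higher in BBMP. The share higher was 49.6% with quantile normalization, 46.8% with cyclic loess, 36.1% with median scaling, 36.9% with normexp and 46.4% with no filter on dim probes, and normexp moved the median log2 difference of all probes from 0.055 to -0.059. With replicate number as a block (replicate block) 0 probes were called, while 13386 had an unadjusted p under 0.05. With slide row as a block, control 3 is the only control array compared, so the calls of that fit are not counted here. Deviations of same-numbered arrays correlated at -0.13, -0.091 and -0.084, and those of other pairs between -0.042 and 0.13. The deviations were centred within each group and the replicate numbers are uncertain. These correlations therefore cannot show whether animals were paired. Leaving out 1 array gave 2 to 5534 called probes, 2 without BBMP 1 and 3 without BBMP 2. The 2 called injury markers became 0 with normexp, 1 with median scaling and 1 with the filter that asks for all 6 arrays. They became 0 with replicate number as a block and 0 to 1 with 1 array left out. The 4 called injury probes became 2 with normexp, 2 with median scaling and 3 with no filter on dim probes. They became 0 with replicate number as a block and 0 to 2 with 1 array left out. At an unadjusted p under 0.05, replicate number as a block gave 3 genes and 5 probes. In 16 cases the sign turned. With normexp the log2 difference was -0.0047 for Havcr1, -0.24 for the third Cd44 probe, 0.15 for Cst3 and -0.14 for Havcr2. The third Cd44 probe was also at -0.029 with quantile normalization, -0.11 with cyclic loess, -0.019 with slide row as a block and -0.13 without control 1. With 1 array left out, Tff3 ran from -0.21 (without control 3) to 1.45 (without control 1) at its first probe and from -0.33 to 1.41 at its second, which was at -0.0028 without BBMP 2. Spp1 ran from -0.54 to 0.073 (without BBMP 1), Lcn2 from -0.15 (without BBMP 3) to 0.42, and the third Cd44 probe reached 0.25 without control 2. Cst3 was at 0.035 with slide row as a block, and from -0.069 to 0.069 with 1 array left out, at 0.0080 without control 1. Among the 22 tested partners of the injury markers, 2 higher and 2 lower became 1 and 1 with quantile normalization and 1 and 0 with no filter on dim probes. Of the 15 urinary and blood markers, limma called 3 with normexp, 1 of them higher, and 2 with trend and robust eBayes. The 1 called NF-kB target became 2 with trend and robust eBayes and 0 with median scaling or no filter on dim probes, where 3 had an unadjusted p under 0.05. The cause of these shifts was not tested. The fit of 1 probe per gene (5659 called) gives a value for the brightest probe of each gene alone. The fit of the mean of a gene's probes (5195) gives no value per probe.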
